A study of Mus musculus with 18 samples.

Results

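The cells described here are secretory precursors of the mouse ileal crypt, recognised by UMIs of Dll1 and Atoh1 in single-cell RNA-seq libraries of sorted GFP+ epithelial cells. A unique molecular identifier (UMI) marks 1 captured RNA molecule, and a barcode marks 1 droplet. Barcodes with 1000 to 18000 UMIs, 200 to 4000 genes and under 5% mitochondrial UMIs were kept. Among them, a cell was taken as Dll1/Atoh1 positive if it held at least 2 UMIs of Dll1 and Atoh1 together, if Muc2, Zg16, Clca1 and Fcgbp made up under 1% of its UMIs and the Defa defensin genes under 10%, and if it had no Tph1 UMI. These limits found 733 cells among 25204 kept barcodes of the 4 Lgr5+ libraries (2.91%), and the whole series of 8 libraries holds 42869 kept barcodes. The same limits found 208 cells among 17665 kept barcodes of the 4 lineage-traced libraries.

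All mice were C57Bl6, 60 to 65 days old, and had received 70 mg/kg tamoxifen 5 days earlier. The WT group (2 libraries) carried Lgr5-GFP-CreERT2 and the Setdb1-KO group (2 libraries) Lgr5-GFP-CreERT2/Setdb1lox/lox, so both expressed the GFP and the inducible Cre from Lgr5 and both were given tamoxifen. The lineage-traced groups carried the nTnG reporter as well, in 2 libraries per genotype, and there GFP marks the descendants of recombined Lgr5+ cells. Cre acts only in cells that express the Lgr5 allele, the labels call the sorted cells stem cells although mucus-rich, hormone-rich and absorptive barcodes were among those kept, and the counts do not show which single cell had lost Setdb1.

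Secretory cells of the gut arise from crypt progenitors by Notch lateral inhibition. A progenitor that expresses the transcription factor Atoh1 displays Delta ligands such as Dll1 and Dll4, which activate Notch receptors on its neighbours. Active Notch induces the repressor Hes1, which holds Atoh1 down and directs the neighbour to the absorptive fate. Atoh1 positive precursors then become goblet or Paneth cells, for which Spdef and Gfi1 are needed, or enteroendocrine cells, which pass through a short Neurog3 stage, and Sox4 is known as a factor of secretory and tuft precursors.

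WT 1 and WT 2 held 150 and 223 Dll1/Atoh1 positive cells, which is 3.15% and 3.64% of their kept barcodes. Setdb1-KO 1 and Setdb1-KO 2 held 90 and 270 cells, or 3.12% and 2.36%. The log2 ratio of the shares, Setdb1-KO over WT, was -0.32 ± 0.44 (SE) with an adjusted p of 0.634 (edgeR quasi-likelihood test over 8 gated classes), and no alternative tried gave a call. The cells had medians of 8484.5 and 7723 UMIs in the WT libraries and of 10948 and 6147.5 in the Setdb1-KO libraries. Library totals ran from 50722926 to 81876035 UMIs. Pairs of libraries shared 3 to 24 kept barcodes, and no cell described here was such a cell in both libraries of a pair.

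Dll1 and Atoh1 chose the cells, so their levels are given without a test. As CPM, the UMIs of a gene scaled to the summed UMIs of the cells of a library, Dll1 stood at 123, 147, 140 and 121 in WT 1, WT 2, Setdb1-KO 1 and Setdb1-KO 2, and Atoh1 at 238, 224, 222 and 282. Of the 733 cells, 367 lay just inside the limit with exactly 2 UMIs, and the highest count in a cell was 10. UMIs of both genes were found in 363 cells, of Atoh1 alone in 249 and of Dll1 alone in 121. The median share of the 4 mucus genes was 0.292% to 0.322% of UMIs per library, and that of the Defa genes 0.128% to 0.454%. In empty droplets (under 100 UMIs), which hold free RNA, Dll1 was at 8.20 to 14.1 CPM and Atoh1 at 13.1 to 25.2 CPM, while the Defa genes reached 40683 to 83738 CPM.

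The other 2 genes given as markers of these precursors, Sox4 and Colca2, were not part of the limits. Sox4 UMIs were present in 45.3%, 39.0%, 43.3% and 37.0% of the cells in the order of libraries above, against 1.78% to 9.26% of absorptive cells (Fabp1, Fabp2, Apoa1, Apoc3 and Rbp2 at 2% of UMIs or more), which should lack it and had median depths of 5181 to 11422 UMIs. With every cell thinned to 2000 UMIs these shares were 18.8% to 22.1% and 0.481% to 3.92%. Sox4 was not restricted to the Dll1/Atoh1 positive cells, since 31.0% to 52.2% of dividing cells and 38.8% to 54.7% of hormone-rich cells also held a UMI. In the Lgr5+ libraries the level of Colca2 exceeded that of dividing, mucus-rich and hormone-rich cells, as the comparisons below show. The level of Sox4 in the summed cells exceeded that of dividing and mucus-rich but not of hormone-rich cells. Lineage-traced cells within the same limits held 0 CPM of Colca2 in traced WT 1, traced WT 2 and traced Setdb1-KO 1. In traced Setdb1-KO 2 they held 17.7 CPM.

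Cells just outside the limit showed lower levels of secretory genes. Between 1 and exactly 2 UMIs of Dll1 plus Atoh1 (1080 and 367 cells), the range of Spdef over the 4 libraries went from 29.1–81.6 to 110–167 CPM and that of Tff3 from 2285–4035 to 5994–6345 CPM. Cells with 0 UMIs had 3.24 to 5.86 CPM of Spdef. Sox4 did not follow this order. It stood at 143 to 267 CPM with 1 UMI, at 146 to 418 with 2 and at 67.1 to 141 in the 203 cells with 4 or more. On the mucus limit, the 235 cells with 0.5% to 1% of mucus UMIs had 29.8 to 111 CPM of Sox4. The 250 cells with 1% to 2%, which were left out, had 29.1 to 74.6 CPM. Colca2 stood at 5.65 to 22.4 CPM in the former and at 5.74 to 13.2 CPM in the latter.

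**Figure D1:**
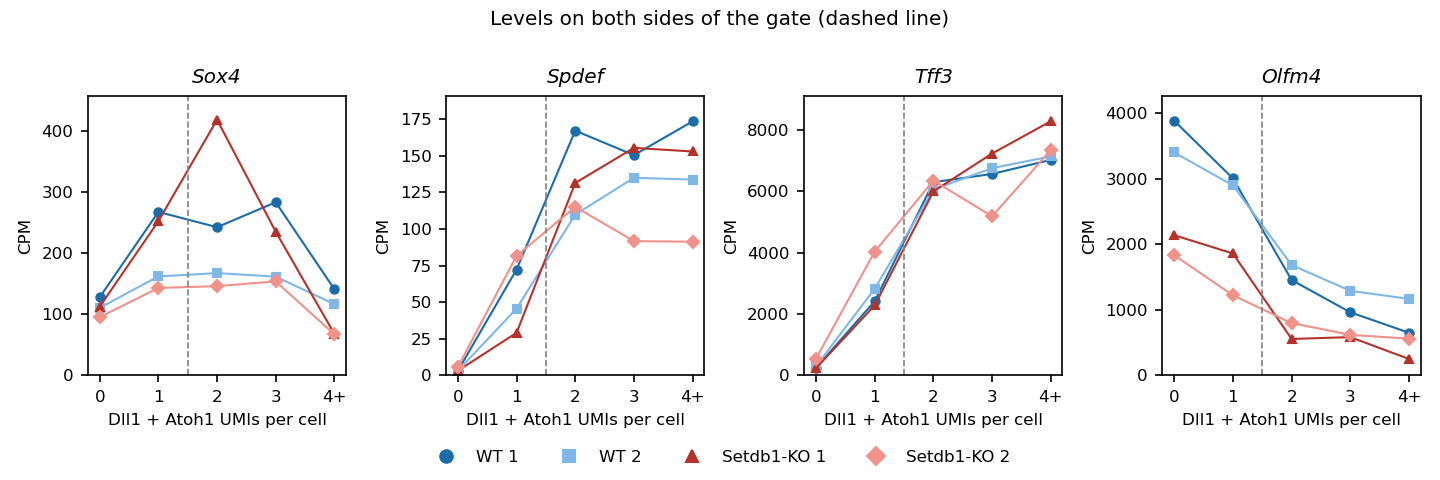
Summed CPM (y axis) of Sox4, Spdef, Tff3 and Olfm4 in cells of the Lgr5+ libraries by their UMIs of Dll1 plus Atoh1 (x axis, 4+ meaning 4 or more), 1 line per library, with the dashed line at the limit. Spdef and Tff3 are near their low end at 0 UMIs and several times higher from 2 UMIs on, while Sox4 is lowest at 0 or at 4+ UMIs in each library.

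A rebuilt DoubletFinder procedure marked 260 of the 733 cells (35.5%) as possible doublets, against 6.32% of all kept barcodes, 2.22% of dividing, 12.2% of mucus-rich and 40.6% of hormone-rich cells. Marked cells had library medians of 8175.5 to 11884 UMIs and unmarked cells of 5128.5 to 10179 UMIs. Marked cells were kept in the comparisons below. Without them 4120, 3896 and 3527 genes were called against dividing, mucus-rich and hormone-rich cells, in place of 4486, 4264 and 4785. Only 7 of the 733 cells passed the limits for hormone-rich (4 cells) or absorptive cells (3 cells). At least 3 of 6 tuft cell genes were found in 15 cells and T cell genes in 3. GFP had 1 UMI in all 733 cells, so it does not check the sort.

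The first comparison set the Dll1/Atoh1 positive cells against dividing cells of the same libraries, which had no Dll1 or Atoh1 UMI, at least 2 UMIs of Mki67 and Top2a and passed the other limits (5228 cells). The question was what separates a secretory precursor from a cycling crypt progenitor. UMIs were summed per library and class and tested with the library as a block by the quasi-likelihood test of edgeR, and every adjusted p below is that test's, corrected over all genes by Benjamini-Hochberg. Levels in the tested comparisons are CPM with the TMM scaling of that comparison, and n is 4 libraries. Of 10956 genes tested, 40.9% were called at an adjusted p under 0.05 (20.6% higher and 20.4% lower in Dll1/Atoh1 positive cells), so a call by itself is common here and the size of a difference says more.

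Secretory transcription factors rose: 17 of 21 tested were higher and none lower, with a median log2 fold change of 2.60 against 0.02 over all genes. Dll1 and Atoh1 UMIs divide these classes, so the direction of genes that follow them is partly set by the choice. This also holds for the Notch ligands and the goblet and Paneth genes below. Spdef, needed for goblet and Paneth maturation, stood at 157, 128, 141 and 107 CPM in WT 1, WT 2, Setdb1-KO 1 and Setdb1-KO 2, and at 2.87, 2.63, 2.34 and 5.11 CPM in the dividing cells of the same libraries. The classes did not overlap, and the log2 fold change was 5.29 ± 0.17 (adjusted p = 6.98e-15). Gfi1, which holds goblet and Paneth precursors away from the endocrine fate, was at 12.9 to 22.4 against 0 to 0.511 CPM (5.73 ± 0.39). Klf4, a goblet factor, was at 165 to 221 against 9.12 to 13.3 CPM (log2 fold change 4.08). Creb3l1 and Creb3l4, membrane-bound factors of the secretory apparatus, were higher by 4.69 and 4.23 on the log2 scale, the Foxa factors Foxa1, Foxa2 and Foxa3 by 1.78, 2.02 and 2.60, and Xbp1, a factor of the unfolded protein response, by 1.59.

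Endocrine fate genes were also higher. Neurog3 had 39.6, 18.6, 62.1 and 18.5 CPM in the Dll1/Atoh1 positive cells and 0.147, 1.27, 1.82 and 2.77 CPM in the dividing cells. Every value of the first group exceeded every value of the second (log2 fold change 4.41 ± 0.39, adjusted p = 2.36e-08). Insm1, a zinc finger factor of endocrine differentiation, was higher by 3.94 and Nkx2-2 by 2.84. Of 18 enteroendocrine genes tested 12 were higher, but Chga, a granule protein of mature endocrine cells, was not called (-0.63, adjusted p = 0.134). Few cells carried some of these genes. Neurog3 UMIs were found in 40 of the 733 cells. Hormone genes were part of the list, and 1 cell held 696 of 715 Ghrl UMIs in Setdb1-KO 2. Single cells held 49 of 53 Gip UMIs in WT 1 and 357 of 361 in WT 2.

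Sox4 differed by less than these. Its levels were 196, 156, 202 and 133 CPM against 107, 102, 83.3 and 72.8 CPM (0.89 ± 0.09, adjusted p = 5.96e-08). These are levels of the summed cells. In the split by gate gene below, cells with Atoh1 alone lay under the dividing cells in WT 1, WT 2 and Setdb1-KO 1. Colca2, a partner of the tuft cell factor Pou2f3, stood at 23.9, 17.99, 34.6 and 23.0 against 7.64, 5.54, 7.29 and 8.39 CPM (1.73 ± 0.17, adjusted p = 1.16e-07). Neither gene overlapped between the classes. Free RNA held 35.7 to 76.1 CPM of Sox4 and 4.02 to 4.56 CPM of Colca2, and its part in these results was not tested.

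Of 22 Notch pathway genes tested, 7 were higher, 3 lower and 12 not called (median 0.32). The share of lower genes was below that over all genes. Dll4, the second Delta ligand of the crypt, was at 30.1, 36.0, 44.8 and 19.6 against 1.47, 1.63, 2.21 and 1.09 CPM (4.32 ± 0.20), and Dll3, a Delta protein that acts within the cell, at 2.73 to 6.72 against 0 to 0.292 CPM (4.86 ± 0.58). Hes1, the main Notch target of the crypt, was at 43.1, 48.9, 28.5 and 40.9 against 113, 109, 99.4 and 108 CPM, with no overlap (-1.39 ± 0.10, adjusted p = 7.48e-10). Nrarp, a feedback inhibitor that Notch induces, fell by 2.09 and the receptor Notch2 by 1.66 on the log2 scale. Notch1 (-0.54, adjusted p = 0.0876), the DNA-binding partner Rbpj (0.19, adjusted p = 0.408) and the ligand Jag1 (-0.98, adjusted p = 0.0981) were not called. Hes6, a Hes protein that opposes Hes1, was higher by 1.13, Lfng, a glycosyltransferase that tunes Notch to its ligands, by 2.12, and Mib1, the ubiquitin ligase that activates Delta ligands, by 0.80.

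Goblet and Paneth genes were far above the dividing cells already. All 19 goblet genes tested were higher (median 4.65), and 13 of 14 Paneth genes (median 2.60). Agr2, a disulphide isomerase needed for mucin folding, stood at 11680 to 13069 against 173 to 600 CPM (5.49 ± 0.21), and Tff3, a trefoil peptide, at 6246 to 7042 against 179 to 513 CPM (4.65 ± 0.17). Among genes with at least 50 CPM, the other large differences included Pla2g10, a secreted phospholipase (5.29), Cbfa2t3, a corepressor (5.27), Ern2, an endoplasmic reticulum stress sensor of mucous cells (4.94), and Guca2a, the precursor of guanylin (4.84). Of the Paneth genes, Mmp7 was higher by 4.54, Wnt3, a ligand for neighbouring stem cells, by 4.28, and Lyz1 by 2.32. Free RNA held 3397 to 4330 CPM of Agr2 and 3709 to 5110 CPM of Tff3, and the dividing cells lay below both. For Lyz1 free RNA held 1405 to 2478 CPM and for Itln1, a lectin of Paneth and goblet cells (higher by 2.88), 1620 to 2646 CPM, above the 257 to 1411 and 637 to 988 CPM of the Dll1/Atoh1 positive cells in every library. The part of free RNA in these results was not tested.

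Stem cell and cell cycle genes were lower. Of 19 stem genes 12 were lower and 3 higher (median -0.48). Olfm4 stood at 992, 1469, 413 and 725 against 3660, 3397, 2201 and 1701 CPM (-1.65 ± 0.12), Ascl2, a Wnt-driven stem cell factor, fell by 1.75, and Lgr5 was at 2.24 to 11.8 against 8.32 to 18.7 CPM, ranges that overlap (-1.01 ± 0.26, adjusted p = 0.0036). Prom1 was higher by 0.86. All 19 mitotic genes and 20 of 27 replication genes tested were lower, with medians of -0.73 and -0.48. Dividing cells were chosen by 2 such genes, so this list is partly set by the choice. Cdk1 still stood at 115 to 145 CPM against 214 to 239 (-0.80). Of 16 genes of cell cycle exit tested, 9 were higher, 1 lower and 6 not called (median 0.31). Btg2 (2.30), Gadd45g (2.95), Cdkn1c (1.66) and Cdkn1a (1.42) were among the higher.

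**Figure D2:**
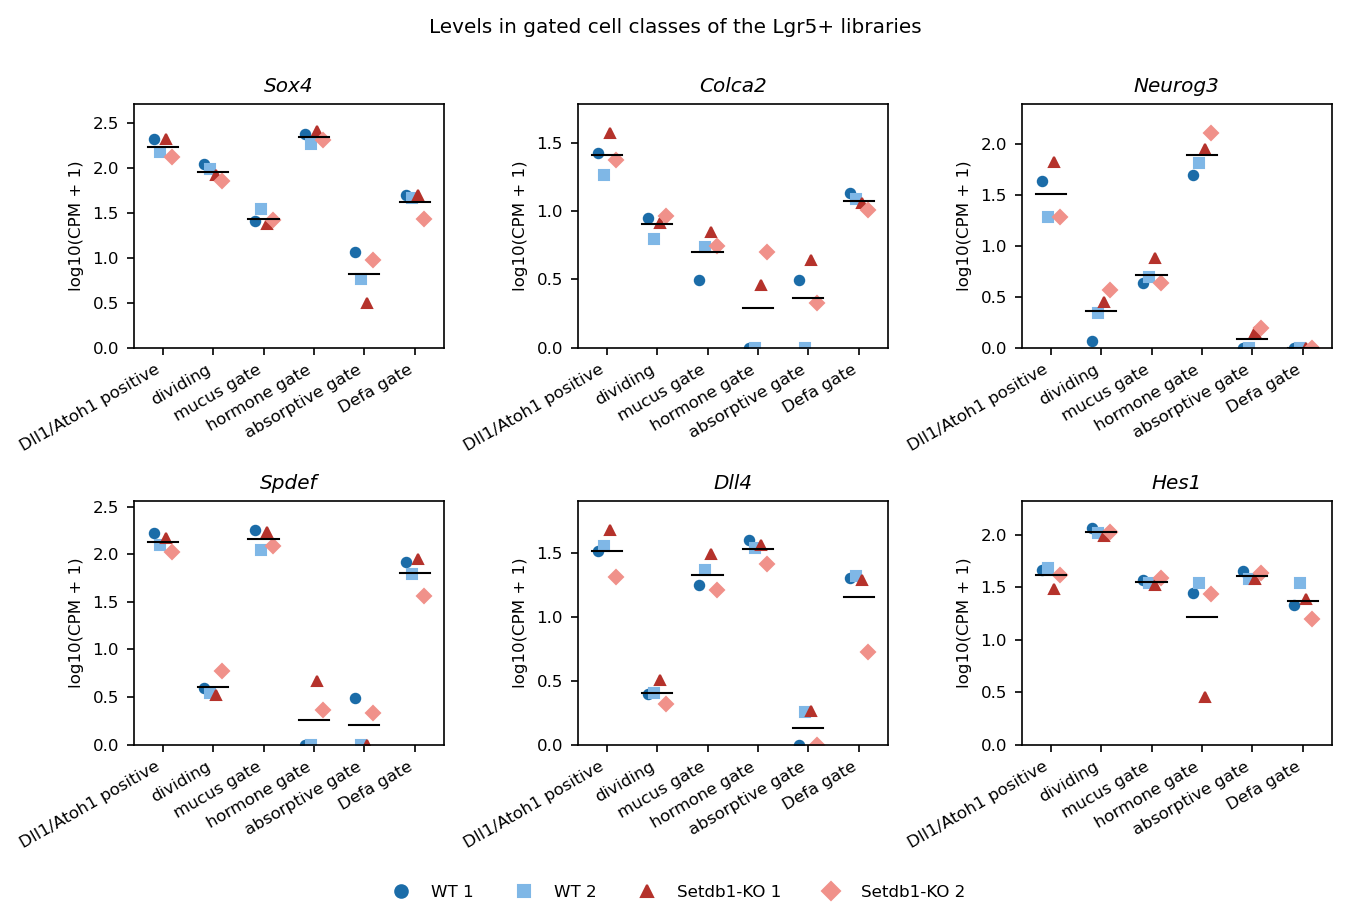
Level of Sox4, Colca2, Neurog3, Spdef, Dll4 and Hes1 (y axis, log10 of CPM + 1) in the classes of the Lgr5+ libraries (x axis, where the mucus, hormone and absorptive gates are the mucus-rich, hormone-rich and absorptive cells), with 4 points per class for the 4 libraries and a bar at the mean of their log10 values. Spdef and Dll4 separate the Dll1/Atoh1 positive from the dividing cells, Hes1 is higher in the dividing cells, and Sox4 in the Dll1/Atoh1 positive cells lies beside its level in the hormone-rich cells.

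Set against mucus-rich cells, which hold at least 1% of UMIs of the 4 mucus genes (3411 cells), the Dll1/Atoh1 positive cells were higher in precursor and cycle genes and lower in goblet products. Of 9936 genes tested, 42.9% were called (21.0% higher and 22.0% lower). Sox4 stood at 184, 145, 189 and 124 against 26.1, 38.1, 24.7 and 28.3 CPM, and its log2 fold change of 2.41 ± 0.12 (adjusted p = 5.35e-18) led the higher genes of at least 50 CPM. Within the Dll1/Atoh1 positive cells Sox4 was at 163–283 CPM under 0.5% of mucus UMIs and at 29.8–111 CPM above that. The mucus limit divides the classes, so the direction of genes that fall with the mucus share is partly set by the choice. Colca2 was higher by 2.29, Neurog3 by 2.69 (17.1 to 58.2 against 3.52 to 7.13 CPM) and Insm1 by 3.08. All 21 mitotic genes tested and 25 of 27 replication genes were higher, with medians of 1.39 and 1.11 against 0.00 over all genes. The spindle motor Kif11 (1.77), the microtubule regulator Stmn1 (1.63) and the kinetochore protein Cenpf (1.62) were among them. Stem genes were higher in 15 of 18 cases (median 1.10), Olfm4 by 1.18 and Axin2, a Wnt target, by 1.61.

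Goblet products were lower in 18 of 19 cases (median -1.69), a direction largely set by the choice of the classes, which the mucus limit divides. Tff3 was at 5846 to 6607 against 20103 to 25442 CPM (-1.84 ± 0.04) and Spink4, a goblet protease inhibitor, fell by 1.80 on the log2 scale. The lowest of the genes of at least 50 CPM was Gsta4, a glutathione transferase, at 12.8, 15.2, 12.4 and 28.0 against 340, 223, 282 and 302 CPM (-3.99 ± 0.12), followed by the calpain Capn9 (-3.26) and Anxa3 (-3.11). Of 19 secretory transcription factors tested, 7 were higher, 5 lower and 7 not called (median 0.11). Spdef was at 99.2 to 147 against 123 to 191 CPM (-0.34 ± 0.07, adjusted p = 3.40e-04), Creb3l1 differed by -0.06 (adjusted p = 0.556) and Gfi1 by -0.24 (adjusted p = 0.261). The Notch target Hes1 was not called (-0.01, adjusted p = 0.945). Klf4 (-0.75), Creb3l4 (-0.85) and Xbp1 (-0.50) were lower. Lyz1 (adjusted p = 0.701) and Mmp7 (adjusted p = 0.206) were not called, and 8 of 14 Paneth genes were lower and 3 higher. Lyz1, like Defa, belongs to a family with near-identical copies and its counts are uncertain.

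Against hormone-rich cells (503 cells with at least 1% of UMIs of 11 hormone genes), 55.5% of 8614 genes were called (26.4% higher and 29.2% lower). Sox4 did not differ beyond the spread, at 225, 177, 231 and 152 against 208, 173, 234 and 193 CPM (-0.07 ± 0.11, adjusted p = 0.649). Neurog3 was lower, at 45.4, 21.1, 71.2 and 21.1 against 42.1, 60.2, 80.8 and 121 CPM (-1.10 ± 0.29, adjusted p = 0.00336). These ranges overlap, and the call was lost with DESeq2 and without Setdb1-KO 2. Several endocrine factors were at or near 0 in the Dll1/Atoh1 positive cells. Neurod1 stood at 0 to 1.92 against 284 to 320 CPM (-8.11), Pax6 at 0 to 1.57 against 188 to 242 CPM, Isl1 at 0.639 to 9.33 against 611 to 865 CPM (-7.70), and Pax4 had no UMI among 5964756, which makes it at least 63.1-fold lower, with a floor of 3 counts over all cells of the class. Insm1 was lower but present, at 17.3 to 42.0 against 280 to 434 CPM (-3.71), with UMIs in 10 to 13 cells of each library. All 15 enteroendocrine genes tested were lower (median -7.09, against -0.08 over all genes), which the choice of hormone-rich cells by hormone genes largely sets.

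Of 30 secretory transcription factors tested against hormone-rich cells, 9 were higher, 18 lower and 3 not called (median -2.40). The goblet factors Spdef and Gfi1, goblet genes and mitotic genes were higher. Spdef was at 122 to 180 against 0 to 3.37 CPM (6.60 ± 0.32), Gfi1 had no UMI in the hormone-rich cells and was at least 10.4-fold higher in the Dll1/Atoh1 positive cells, and 18 of 19 goblet genes were higher. Colca2 was higher by 3.88. All 21 mitotic genes tested were higher (median 2.77), and the cell cycle inhibitors Cdkn1a (-4.37) and Cdkn1c (-5.96) were lower. Of 15 genes of cell cycle exit tested, 3 were higher, 6 lower and 6 not called. Dll4 was not called (0.26, adjusted p = 0.308), and Hes6 (0.80) and Hes1 (1.18) were higher. The doublet marks took in 204 of the 503 hormone-rich cells. By library these were 3 of 75 in WT 1, 18 of 89 in WT 2, 1 of 94 in Setdb1-KO 1 and 182 of 245 in Setdb1-KO 2.

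**Figure D3:**
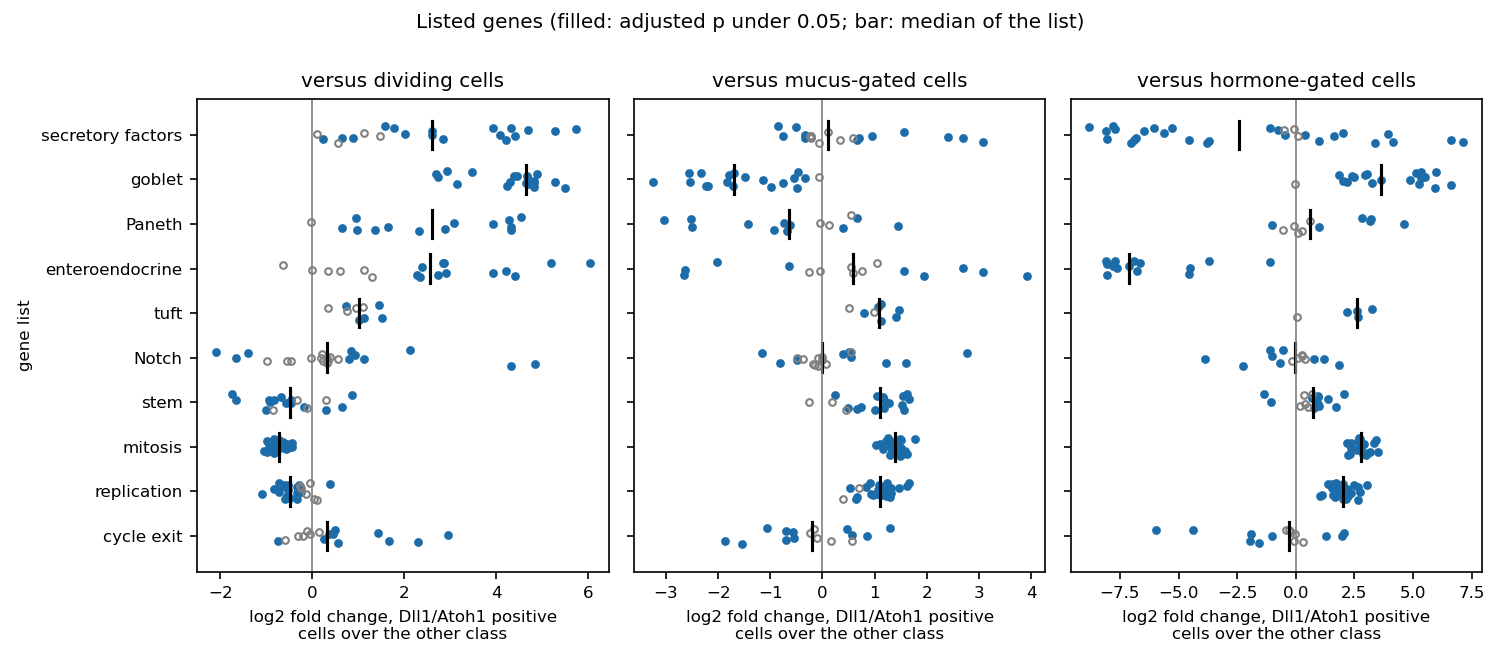
Log2 fold change (x axis) of every tested gene of 10 gene lists (y axis) in Dll1/Atoh1 positive cells against dividing, mucus-rich and hormone-rich cells. Each point is a gene, filled where the adjusted p is under 0.05, and the bar is the median of the group. Goblet genes lie above 0 against dividing cells and below 0 against mucus-rich cells, and mitotic genes the other way round.

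The cells were not uniform. The 3 groups by gate gene, formed after their values had been seen and described here without a test, differed in endocrine genes. Neurog3 UMIs were found in 40 of the 733 cells (6, 13, 10 and 11 by library). Of these cells 38 held Dll1 and 13 held Atoh1. Among cells with Dll1 alone 27 of 121 (22.3%) held Neurog3, with 17.9%, 19.5%, 42.1% and 18.2% by library. Among cells with both genes it was 11 of 363 (3.03%), and among cells with Atoh1 alone 2 of 249 (0.803%). The absorptive cells had 0% to 0.478%. The range of median UMIs over libraries was 4483 to 9513 for Dll1 alone, 6741 to 11545 for both and 6005.5 to 10066.5 for Atoh1 alone. These shares were not thinned to a common depth, and the part of depth was not tested.

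Levels followed the same split in each library. Neurog3 stood at 240, 84.4, 320 and 126 CPM in cells with Dll1 alone, at 3.26, 5.85, 3.74 and 11.3 CPM in cells with both genes and at 0, 2.00, 0 and 1.32 CPM in cells with Atoh1 alone. Sox4 stood at 577, 376, 836 and 464 CPM with Dll1 alone, at 165, 120, 78.5 and 103 CPM with both and at 96.0, 76.0, 9.05 and 87.4 CPM with Atoh1 alone. The Dll1-alone values exceeded all others for both genes, for Insm1 (64.9 to 185 against 0 to 9.05 CPM with Atoh1 alone) and for Gadd45g, a stress and growth arrest gene (71.4 to 212 against 14.0 to 45.2 CPM with Atoh1 alone and 26.1 to 80.4 CPM with both), except that 1 library with both genes lay above the lowest Dll1-alone value of Gadd45g. Without marked doublets Sox4 was at 477 to 914 CPM with Dll1 alone and at 14.8 to 126 CPM with Atoh1 alone. Dividing cells had 106, 99.8, 81.5 and 71.7 CPM of Sox4 (TMM-scaled). With marked cells kept, the cells with Atoh1 alone lay below this in WT 1, WT 2 and Setdb1-KO 1 and above it in Setdb1-KO 2.

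The goblet gene Agr2 was at 13062 to 22262 CPM with Atoh1 alone, at 10909 to 14051 CPM with both genes and at 2176 to 7978 CPM with Dll1 alone. The cells with Dll1 alone lay below the other groups in every library. Creb3l4 was at 84.7 to 149 CPM with Atoh1 alone and at 10.9 to 47.0 CPM with Dll1 alone. Spdef was at 119 to 240 and 16.3 to 114 CPM and Hes1 at 44.0 to 52.7 and 28.6 to 42.8 CPM, also without overlap between these 2 groups. Dll4 overlapped (23.8 to 49.8 and 11.5 to 51.9 CPM). The mucus share showed the same grading. In the 314 cells under 0.25% of mucus UMIs Sox4 was at 222 to 415 CPM and Spink4 at 3038 to 8071 CPM, and in the 235 cells at 0.5% or more at 29.8 to 111 and 22034 to 23911 CPM.

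**Figure D4:**
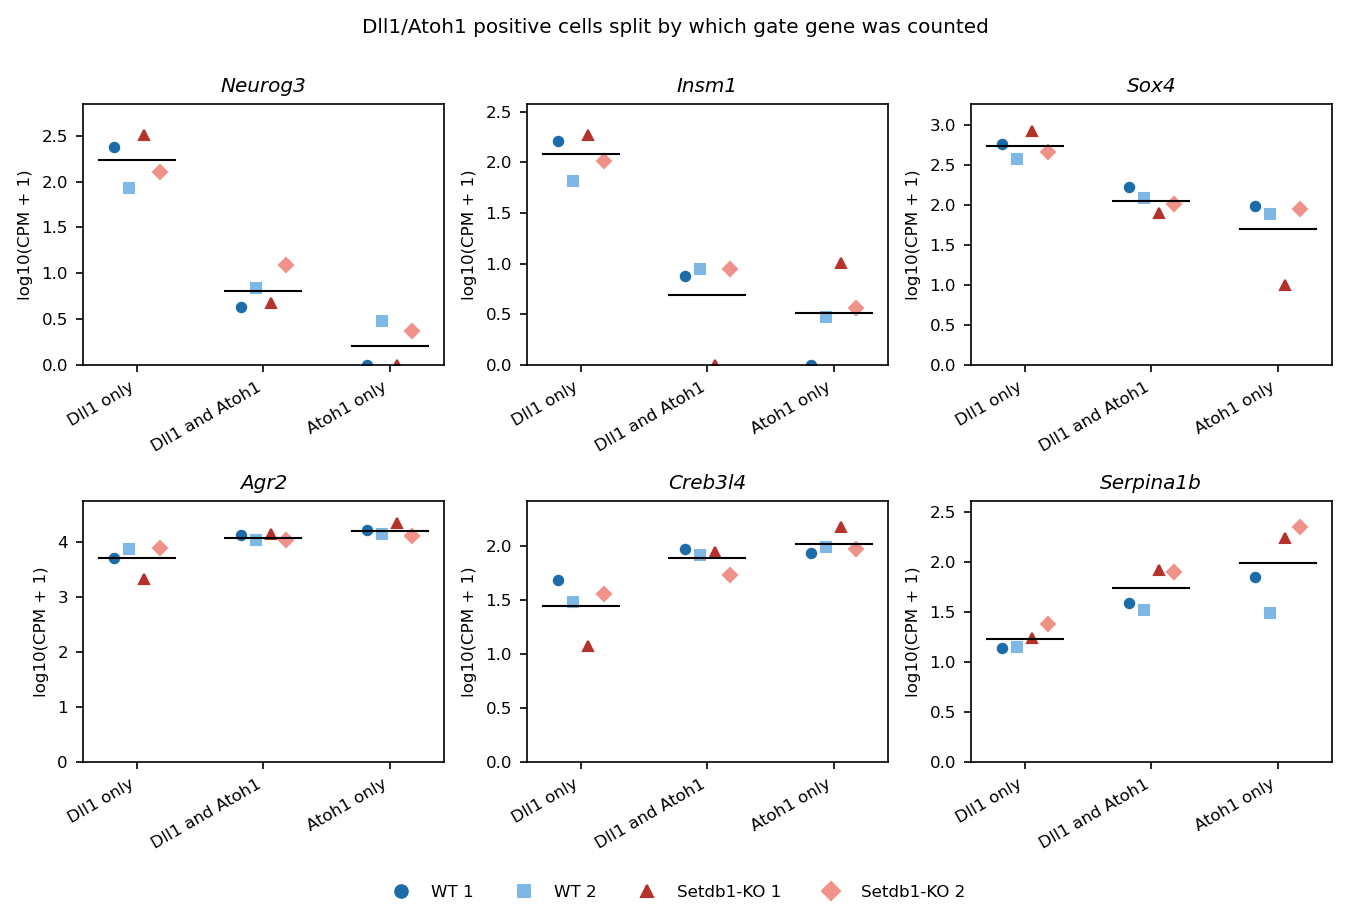
Level of 6 genes (y axis, log10 of CPM + 1) in Dll1/Atoh1 positive cells with UMIs of Dll1 alone, of both genes or of Atoh1 alone (x axis), with 1 point per library and a bar at the mean of the log10 values. Neurog3, Insm1 and Sox4 are highest with Dll1 alone, and Agr2, Creb3l4 and Serpina1b lowest there.

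The proximal promoters of the marker genes Dll1, Atoh1, Sox4 and Colca2 and of Neurog3, Spdef and Agr2 were searched. Of the genes named in the split, Insm1 had no entry in the promoter reference, and Gadd45g and Creb3l4 were not searched. Colca2 was not among the genes read in the split. Whether a motif bears on the split was not tested. Atoh1 and Neurog3 bind E-boxes, of which CAGCTG is a form. The motif reads the same on both strands and overlaps no other motif searched. It occurs in 13.0% of 32851 mouse promoter windows of 250 bases before a gene start (RefSeq, GRCm38.p6). Capitals mark it, and the sequences run 5′ to 3′ on the strand of the gene. It begins 165 bases before the start in Neurog3 (chr10:62132840-62133089, + strand), 211 bases before it in Sox4 (chr13:28953700-28953949, - strand) and 132 bases before the more distant of 2 starts in Dll1 (chr17:15376933-15377182, - strand). It was not found in the windows of Atoh1, Colca2, Spdef and Agr2, nor in that of the other Dll1 start (chr17:15375824-15376073). No binding data were used, and a match is a description of the letters.
Neurog3: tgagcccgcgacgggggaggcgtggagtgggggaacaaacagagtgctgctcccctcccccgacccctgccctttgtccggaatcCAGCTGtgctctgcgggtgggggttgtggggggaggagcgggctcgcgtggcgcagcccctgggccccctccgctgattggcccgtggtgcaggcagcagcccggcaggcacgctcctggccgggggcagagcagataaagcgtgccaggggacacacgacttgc
Sox4: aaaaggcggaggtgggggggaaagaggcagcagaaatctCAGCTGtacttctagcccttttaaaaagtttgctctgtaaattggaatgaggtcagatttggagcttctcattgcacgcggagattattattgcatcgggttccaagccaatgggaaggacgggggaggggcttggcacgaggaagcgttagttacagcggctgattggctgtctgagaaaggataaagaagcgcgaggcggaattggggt
Dll1: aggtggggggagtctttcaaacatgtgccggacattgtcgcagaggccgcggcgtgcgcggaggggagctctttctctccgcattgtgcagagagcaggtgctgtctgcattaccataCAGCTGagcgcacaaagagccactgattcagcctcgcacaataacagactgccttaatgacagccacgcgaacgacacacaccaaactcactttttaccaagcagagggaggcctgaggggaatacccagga

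The second question was whether the precursors differed between genotypes. Setdb1, the histone H3K9 methyltransferase gene that is deleted, stood at 11.3 and 8.03 CPM in WT and at 5.25 and 8.57 CPM in Setdb1-KO Dll1/Atoh1 positive cells (-0.38, adjusted p = 0.994). Cre removes only part of the gene and 3′ counts read mostly its end, so this level does not check the deletion. In the dividing cells of the same libraries Setdb1 was lower, at 13.1 and 10.8 against 5.35 and 6.39 CPM (-1.01, adjusted p = 0.0475), and the difference of effects was not called (0.60). Of 8356 genes tested 27 were called (0.323%), 12 higher (0.144%) and 15 lower (0.180%) in Setdb1-KO. The WT and Setdb1-KO values of all 27 did not overlap, which was also true of 33.9% of all genes tested. At an unadjusted p under 0.05 there were 493 genes, and DESeq2 called 22 genes, 17 of them shared. The count rests on WT 1. Without it 3 genes were called (Bglap3, Ceacam10 and Gip), without Setdb1-KO 1 there were 101 and without Setdb1-KO 2 there were 82.

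At a background of 0.323%, lists of this size are expected to hold few calls or none, so their counts say little about the lists. None of 17 secretory transcription factors and none of 17 Notch pathway genes passed the edgeR test (0 and 1 at an unadjusted p under 0.05, where 493 of all 8356 genes were, and none with DESeq2), and their medians were 0.12 and -0.13 against 0.00 over all genes. Sox4 stood at 202 and 159 CPM in WT and at 208 and 136 CPM in Setdb1-KO (-0.09 ± 0.20). Neurog3 was at 40.9 and 18.9 against 64.0 and 18.9 CPM, Spdef at 162 and 130 against 146 and 109 CPM, Hes1 at 44.4 and 49.9 against 29.4 and 41.7 CPM, and Colca2 at 24.7 and 18.3 against 35.7 and 23.4 CPM. The 2 libraries of a genotype differed by as much as the genotypes or more for Sox4 and Neurog3. The same edgeR test called none of 21 mitotic, 27 replication, 15 innate immunity and 13 H3K9 pathway genes (1, 1, 2 and 0 at an unadjusted p under 0.05, and none with DESeq2). The gated genes Dll1 (120 and 155 against 138 and 126 CPM) and Atoh1 (231 and 235 against 219 and 292 CPM) were not tested.

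MHC class II genes, which present antigen to T helper cells, were the list with most calls, 4 lower of 6 tested (median -1.94). H2-Aa stood at 123 and 140 CPM in WT and at 8.39 and 30.3 CPM in Setdb1-KO (-2.59 ± 0.30, adjusted p = 0.00131). H2-Eb1 fell by 2.17 and H2-Ab1 by 1.70 on the log2 scale. Cd74, the invariant chain, was at 1028 and 1115 against 70.3 and 350 CPM (-2.30 ± 0.43, adjusted p = 0.0391). All 4 calls were lost with DESeq2 and without WT 1, and 3 of them (not H2-Aa) also without WT 2, with the direction kept. Free RNA held 965 and 649 CPM of Cd74 in WT and 89.3 and 320 CPM in Setdb1-KO, and its part in the result was not tested. In the dividing cells Cd74 was at 1861 and 1269 against 220 and 553 CPM (-2.01), and the genotype effect in the 2 classes was not called different.

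The chemokine Ccl6 stood at 691 and 564 CPM in WT and at 188 and 178 CPM in Setdb1-KO (-1.78 ± 0.16, adjusted p = 0.000159). Ceacam10, a member of the carcinoembryonic antigen family, was at 125 and 204 against 31.5 and 24.6 CPM (-2.59 ± 0.25, adjusted p = 0.000279), and Adh6a, an alcohol dehydrogenase, at 66.2 and 60.8 against 3.15 and 9.71 CPM (-3.10 ± 0.31, adjusted p = 0.000398). For each of these genes both Setdb1-KO libraries were below both WT libraries. Free RNA was also lower in both Setdb1-KO libraries, with 328 and 350 against 198 and 263 CPM of Ccl6, 73.2 and 85.8 against 12.5 and 27.3 CPM of Ceacam10 and 121 and 117 against 15.5 and 19.6 CPM of Adh6a, and its part in these results was not tested. It exceeded the cells for Adh6a in every library and for Ccl6 in the Setdb1-KO libraries. Ceacam10 also differed in the dividing cells, at 87.0 and 106 against 5.86 and 17.2 CPM. So did Adh6a, at 57.1 and 58.2 against 8.66 and 13.0 CPM, while Ccl6 was not called there (adjusted p = 0.617). Ccl6 was lower by more in the Dll1/Atoh1 positive cells than in the mucus-rich cells, where it stood at 2365 and 2396 against 1151 and 1302 CPM. That difference of effects was -0.83 (adjusted p = 0.00415), 1 of 4 called among 9936 genes (0.0403%) in a comparison added after the values had been seen. Ang4, a Paneth and goblet antimicrobial ribonuclease with near-identical family members, was at 71.1 and 52.2 against 17.8 and 20.0 CPM (-1.67, adjusted p = 0.00646), and 32 of its 101 UMIs in WT 1 came from 1 cell. Free RNA held 334 and 346 against 797 and 304 CPM of Ang4.

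Among the higher genes, Ly6e, a membrane-anchored surface protein, stood at 187 and 153 CPM in WT and at 485 and 394 CPM in Setdb1-KO (1.37 ± 0.17, adjusted p = 0.00209), and Alad, an enzyme of haem synthesis, at 77.5 and 97.5 against 198 and 238 CPM (1.32 ± 0.17, adjusted p = 0.00363). Both were also higher in Setdb1-KO dividing cells, with Ly6e at 96.2 and 99.9 against 246 and 221 CPM (1.25) and Alad at 111 and 121 against 314 and 269 CPM. The part of free RNA in the results for Ly6e and Alad was not tested. Zfp667, a zinc finger gene, was at 1.41 and 5.16 against 57.7 and 30.3 CPM (3.56 ± 0.48, adjusted p = 0.00407). It had UMIs in 1 and 8 WT cells and in 32 and 39 Setdb1-KO cells, and in mucus-rich cells its log2 fold change was 4.18 (adjusted p = 0.00665). In dividing cells it was at 0.435 and 0.624 against 1.27 and 1.22 CPM (1.23, adjusted p = 0.286), and the difference of effects was not called (adjusted p = 0.858), as for all but 5 of 10956 genes (0.0456% called).

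Bglap3, an osteocalcin family gene whose near-identical copies make its counts uncertain, had the largest fold change, from 0.704 and 0.573 CPM in WT to 95.5 and 72.6 CPM in Setdb1-KO (6.85 ± 0.41, adjusted p = 2.69e-06). Few cells carried it. UMIs were found in 1 cell of each WT library and in 5 and 20 Setdb1-KO cells, and 1 cell held 68.1% of the 91 UMIs of Setdb1-KO 1. Bglap3 was also called higher in Setdb1-KO dividing cells (4.96, adjusted p = 0.0170) and mucus-rich cells (6.11, adjusted p = 0.00166). Serpina1b, a protease inhibitor of a family with near-identical copies, was at 44.4 and 29.8 against 89.2 and 138 CPM (1.66), and Bambi, a decoy receptor of TGF-beta signalling, at 3.52 and 10.9 against 55.6 and 38.3 CPM (2.58). Lyz1 was at 265 and 404 against 1454 and 723 CPM (1.69, adjusted p = 0.0138), with 1405 and 1519 against 1805 and 2478 CPM in free RNA, a higher level than in the cells.

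A few calls were lost without the 7 cells that also passed the hormone or absorptive limits. Of the Gip UMIs in WT 1 and WT 2, 49 of 53 and 357 of 361 lay in 1 cell each, and without the 7 cells the log2 fold change went from -3.86 to 1.74 and was not called. Apoa1 (2.73) and Rbp2 (2.21), apolipoprotein and retinol-binding genes of absorptive cells, were not called without those cells (0.88 and 1.27). In dividing cells Rbp2 was also higher in Setdb1-KO, at 85.7 and 154 against 420 and 328 CPM (1.65, adjusted p = 0.0123). The study described a set of differentiation genes as activated early in its Stem-I cells, from linked accessibility and expression. They were chosen on these samples, so they are no independent evidence of a direction, and Stem-I cells are another population. Of 14 such genes listed here 6 were tested, and 2 of these were higher, Lyz1 and Rbp2. Over all 8356 genes tested 0.144% were higher. Free RNA held 374 and 528 CPM of Rbp2 in WT and 1305 and 846 CPM in Setdb1-KO. That was above the cells in every library, and its part was not tested.

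**Figure D5:**
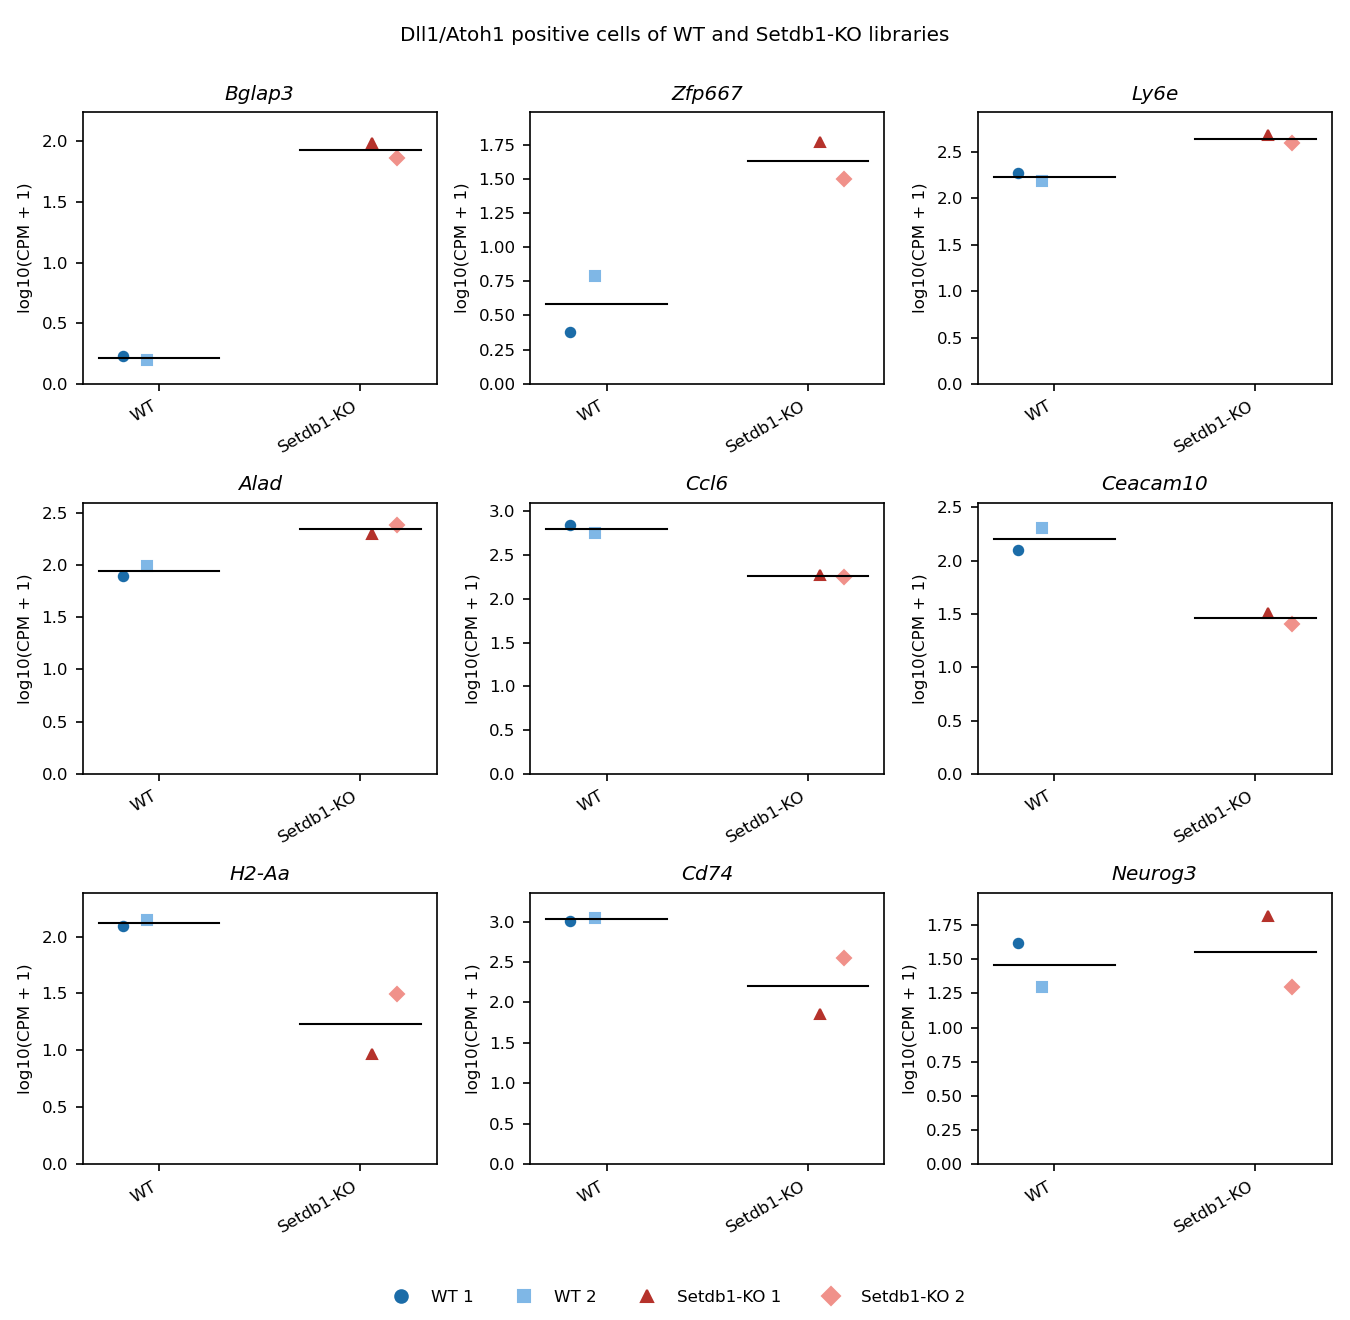
Level of 9 genes (y axis, log10 of TMM-scaled CPM + 1) in Dll1/Atoh1 positive cells of the 2 WT and 2 Setdb1-KO libraries, 1 point per library and a bar at the mean of the log10 values. Bglap3, Zfp667, Ly6e and Alad are higher in both Setdb1-KO libraries, Ccl6, Ceacam10, H2-Aa and Cd74 lower, and Neurog3 overlaps.

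The make-up of the population did not separate the genotypes. The share of cells with a Neurog3 UMI was 4.91% ± 1.29 in WT and 7.59% ± 4.98 in Setdb1-KO (SD, n = 2), that with an Lgr5 UMI 6.37% ± 2.41 and 4.07% ± 3.67, that with an Mki67 or Top2a UMI 56.1% ± 4.54 and 55.2% ± 4.19, and that with both Dll1 and Atoh1 UMIs 49.9% ± 5.52 and 50.4% ± 5.76. Each gave an exact two-sided permutation p of 0.667 over libraries, and 0.333 is the smallest that 2 against 2 libraries allow. Thinned to 2000 UMIs, the Neurog3 shares were 2.58% and 5.01%. The median coefficient of variation between cells, over 3069 genes and after thinning, was 246% ± 9.40 in WT and 245% ± 4.55 in Setdb1-KO (SD, n = 2, exact permutation p = 1.00). Genes entered from a mean of 0.05 UMIs per cell, where counting noise alone makes this coefficient large. Medians at equal depth can therefore be alike whether or not cells vary more, and no conclusion is drawn. Without thinning they were 195% and 214% in WT and 184% and 235% in Setdb1-KO, lowest in the library with most UMIs per cell and highest in that with fewest.

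The lineage-traced libraries, which the limits were not built on, held fewer such cells, 26 and 8 in traced WT (0.485% and 0.377% of their kept barcodes) and 40 and 134 in traced Setdb1-KO (1.73% and 1.70%), with median UMIs of 3723.5 to 7166. Both traced Setdb1-KO shares lay above both traced WT shares, and this difference was not tested. Barcodes past the Defa limit made up 38.6% and 65.7% of kept barcodes in traced WT and 12.6% and 5.30% in traced Setdb1-KO. Free RNA there held 371615 and 394011 against 167861 and 167534 CPM of Defa genes. The part of either in the shares was not tested. Set against dividing cells of the same libraries, 21.9% of 5235 genes were called. All 18 goblet genes tested were higher again (median 2.89, against -0.04 over all genes). Spdef stood at 44.2 to 111 against 5.09 to 7.83 CPM (3.66 ± 0.33), Dll4 was higher by 2.91, Klf4 by 2.26 and Agr2 by 2.98, and Hes1 was at 212 to 356 against 421 to 611 CPM (-0.86 ± 0.13). Of 19 mitotic genes 12 were lower. Sox4 was not called, at 111, 103, 146 and 37.8 against 67.8, 73.5, 136 and 57.4 CPM (0.04 ± 0.23, adjusted p = 0.922), and only 5 traced cells held Neurog3.

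Between traced genotypes 27 of 2175 genes were called (1.24%), 14 higher (0.644%) and 13 lower (0.598%) in Setdb1-KO. The calls rest on traced Setdb1-KO 1, without which none was made by edgeR (111 genes at an unadjusted p under 0.05, and DESeq2 was not run there). Cd74 was at 526 and 705 against 202 and 251 CPM (-1.40, adjusted p = 0.00471). Reg4, a lectin of secretory cells, was at 51.7 and 35.3 against 1174 and 186 CPM, and 161 of its 232 UMIs in traced Setdb1-KO 1 and 37 of 98 in traced Setdb1-KO 2 lay in 1 cell each. Ccl6 (319 and 370 against 304 and 509 CPM) and Ceacam10 (34.5 and 159 against 121 and 96.9 CPM) overlapped and were not called. The genotype effect of both differed between the traced and the Lgr5+ Dll1/Atoh1 positive cells, by 2.29 and 3.24 on the log2 scale, 2 of 11 such genes among 7606 tested (0.145%). The traced WT 1 and traced WT 2 levels rest on 37 and 21 UMIs of Ccl6 and on 4 and 9 UMIs of Ceacam10. In traced WT 2, 16 of the 21 Ccl6 UMIs and 5 of the 9 Ceacam10 UMIs lay in 1 cell each.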

How the data were processed

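Single-cell RNA-seq of GFP+ epithelial cells from ileal crypts was read from 8 libraries, and the other samples of the series were not analysed here. The deposited values are UMI counts per gene feature and barcode, which the authors made with Cell Ranger (6.1.1 in the submitters' processing notes, build mm10), without normalization and before cells were called. Files hold 32286 features. Members and gene lists were chosen with earlier results of these data known.

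Counts were summed per library and class and tested in edgeR 4.0.16 (genes kept by filterByExpr, TMM scaling, glmQLFTest, threshold 0.05 after Benjamini-Hochberg, R 4.3.3), with genotype alone or with library and class. The gated genes were left out of the tests, so no p is given for them. DESeq2 1.42.0, RLE scaling, no filter, leaving out marked doublets (pN 0.25, pK 0.09, 10 components, 0.8% per 1000 barcodes), a limit of 3 UMIs, a 10% mitochondrial limit and leaving out each library were alternatives. Replicates are libraries that the study describes as biological replicates, and cells were never used as such.

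Named genes were up to 10 per direction by adjusted p (genotype, log2 change of at least 1, no overlap) or by log2 fold change (classes, at least 50 CPM, same direction in 4 libraries), the gated and marker genes, and genes of the lists. On simulated data 94.6% of 184 changed genes were recovered with 6 false calls for genotype (8076 genes) and 95.4% of 195 with 12 for the dividing cells (10712 genes). Every changed gene had been given a 4-fold change, up or down, so recovery of smaller changes was not measured. The simulated counts followed the dispersion trend alone, with no extra spread of single genes and no single cell holding most UMIs. Recovery under such spread, as in the real libraries, was not measured either. Values after ± are standard errors of the edgeR fit or, where marked SD, standard deviations over the libraries of a genotype. Genes with near-identical copies are uncertain. Promoters were read from RefSeq.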

Additional observations from a re-analysis of the deposited data

Results flagged for a closer look

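Several results differed between groups by a test of the difference itself. Between the lineage-traced and the Lgr5+ Dll1/Atoh1 positive cells the genotype effect differed for 11 of 7606 genes tested (0.145%, edgeR quasi-likelihood interaction with Benjamini-Hochberg adjustment, 562 at an unadjusted p under 0.05). As differences of log2 fold changes, traced minus Lgr5+, they were -6.15 for Apoa1, -8.21 for Apoa4, 2.29 for Ccl6, 3.24 for Ceacam10, -10.96 for Cyp3a11, -7.51 for Gsta1, 1.93 for Ifitm3, -2.39 for Mt2, -3.81 for Rbp2, 3.83 for Reg4 and 11.95 for Retnlb, with adjusted p from 9.44e-05 to 0.0462. The traced WT libraries held 26 and 8 such cells. In the traced libraries free RNA of the absorptive genes was above the cells and also lower in Setdb1-KO, with 594 and 620 against 127 and 80.1 CPM of Apoa1, 247 and 248 against 47.2 and 20.1 CPM of Apoa4, 287 and 179 against 39.9 and 16.8 CPM of Cyp3a11, 329 and 374 against 114 and 53.7 CPM of Gsta1 and 1006 and 1338 against 391 and 368 CPM of Rbp2, and its part was not tested. Few cells carry several of these values. In Lgr5+ Setdb1-KO 1 and Setdb1-KO 2, 19 of 29 and 96 of 127 Apoa1 UMIs and 5 of 7 and 45 of 66 Gsta1 UMIs lay in cells past the hormone or absorptive limits. In traced WT 2, 1 cell held 10 of 12 Apoa1 UMIs and 9 of 11 Apoa4 UMIs. Of the Ccl6 and Ceacam10 UMIs in traced WT 2, 16 of 21 and 5 of 9 lay in 1 cell each. Traced WT 1 held 37 UMIs of Ccl6 and 4 of Ceacam10. In traced Setdb1-KO 1, 1 cell held 161 of 232 Reg4 UMIs. Retnlb, a goblet cytokine-like peptide, had no UMI in traced WT and 318 UMIs in 11 cells and 357 in 24 cells of the traced Setdb1-KO libraries, at least 51.1-fold higher (floor of 3 counts over the group), and 205 of the 318 lay in 1 cell. Cyp3a11 had 5 and 4 UMIs in traced WT and none in traced Setdb1-KO. For these 2 genes the fitted value depends on the prior count and is no bound.

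Against dividing cells of the same Lgr5+ libraries, in a comparison added after the values were seen, the genotype effect differed for 5 of 10956 genes (0.0456%, same test with the library as a block). The differences, Dll1/Atoh1 positive minus dividing, were -1.75 for Ang4 (adjusted p = 0.0133), 2.39 for Apoa1, 4.62 for Ghrl, -5.07 for Gip and -1.65 for Rep15 (adjusted p = 0.0192). Ang4 in dividing cells was at 11.8 and 17.5 CPM in WT and at 15.9 and 14.9 CPM in Setdb1-KO. Rep15 had a log2 fold change of -0.04 in the Dll1/Atoh1 positive cells. In dividing cells it was at 1.38 and 3.57 CPM in WT and at 2.67 and 11.5 CPM in Setdb1-KO (1.65, not called). Free RNA held 43.1 and 40.7 against 41.1 and 58.3 CPM of Rep15, and its part was not tested. Of the Ghrl UMIs in Setdb1-KO 2, 696 of 715 lay in 1 cell that passed the hormone limit. Against mucus-rich cells 4 of 9936 genes differed, with -0.83 for Ccl6, 1.43 for Fabp1, -4.96 for Gip and 1.36 for Serpina1b. Serpina1b was at 146 and 78.0 CPM in WT and at 104 and 158 CPM in Setdb1-KO mucus-rich cells. Of the Fabp1 UMIs, 175 of 343 in Setdb1-KO 1 and 428 of 741 in Setdb1-KO 2 lay in cells past the hormone or absorptive limits, and none did in WT. Free RNA held 434 to 2375 CPM of Fabp1, and its part was not tested.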

How the results depend on the processing

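The count of 27 genes called between genotypes went to 99 with no filter on low counts, to 105 with a replicate block and over 3 to 101 when each library was left out (3 without WT 1). WT and Setdb1-KO replicates shared only a number (correlation of deviations 0.0983, from the only 2 pairs), so the block is no evidence of pairing. All 27 genes were also called in the block fit and with RLE scaling, 17 with DESeq2, 26 without marked doublets and 18 with a limit of 3 UMIs. Called genes against mucus-rich cells numbered 2580 with DESeq2, in place of 4264. Leaving out each library gave 3755 to 4083 against dividing, 3512 to 3864 against mucus-rich and 3907 to 4404 against hormone-rich cells, 0 to 33 between traced genotypes (14 with no filter) and 3 to 31 for the interaction (26 with no filter, 18 without Lgr5+ WT 1, 24 without either Lgr5+ Setdb1-KO library, 3 and 4 without traced WT 1 and traced WT 2, 31 without traced Setdb1-KO 1). The log2 ratio of shares ran from -0.52 to -0.12. Differences in make-up, in percentage points, ran from -0.84 to 6.20 (Neurog3), -4.89 to 0.30 (Lgr5), -4.15 to 2.27 (Mki67 or Top2a) and -3.61 to 4.54 (both gate genes). That of the median coefficient of variation, -0.13 points, ran from -6.77 to 6.52, and was 5.15 without thinning, 0.39 without marked doublets and 1.36 at the 10% mitochondrial limit. Gip reversed to 1.74 without the 7 cells past the hormone or absorptive limits, which hold nearly all of its WT UMIs. The other causes were not tested. Of the alternatives for single genes 2500 kept direction and side of the threshold, 90 lost the call, 26 gained one and 40 uncalled values changed sign. Each genotype had 2 libraries of 90 to 270 cells, and power for small changes in rare transcripts was not tested.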

Other observations

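Tuft cell genes were present at a low level in the Dll1/Atoh1 positive cells. Of 9 tested 5 were higher than in dividing cells (edgeR quasi-likelihood, median log2 fold change 1.03), where 20.6% of all genes were, and 6 of 8 were higher than in mucus-rich cells (median 1.09), where 21.0% of all genes were. Avil, an actin regulator of tuft cells, was higher by 1.51 and Dclk1 by 1.46 against dividing cells, where Rgs13 was not called (adjusted p = 0.0642). Few cells carried these UMIs. Dclk1 was found in 1, 9, 1 and 3 cells of WT 1, WT 2, Setdb1-KO 1 and Setdb1-KO 2, with 1 cell holding all 11 UMIs in WT 1, all 6 in Setdb1-KO 1 and 8 of 12 in Setdb1-KO 2, and Avil was found in 4, 12, 4 and 9 cells. The summed CPM of 14 tuft genes was 54.4 and 195 in WT and 139 and 70.1 in Setdb1-KO Dll1/Atoh1 positive cells, against 40.5 to 88.4 in dividing cells. The 15 cells with at least 3 of 6 tuft genes were 1 and 8 in WT and 1 and 5 in Setdb1-KO.

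Stress genes, many of which respond to tissue dissociation, were higher than in dividing cells in 7 of 11 cases (median 0.75, 20.6% of all genes higher) and lower than in mucus-rich cells in 8 of 11 (median -0.80, 22.0% of all genes lower). T cell genes summed to 102 CPM in WT 1, from few cells, and to 0.552 to 3.82 CPM in the other Lgr5+ libraries.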
